A study of Mus musculus with 12 samples.

Results

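The 10 genes described here encode inflammasome sensors, their adaptor, the inflammatory caspases and the proteins that carry out pyroptosis and necroptosis. They are Nlrp3, Pycard, Casp1, Casp4, Gsdmd, Aim2, Nek7, Casp8, Ripk3 and Mlkl. They were chosen by name for their function, with earlier results of these data known, and each matched 1 of the 54232 genes in the count table. RNA was measured in cultures of RAW264.7, a line of mouse macrophages, in 12 libraries that form 6 groups of 2. The cells were labelled Ing4-/- (Ing4 KO), Socs1-/- (Socs1 KO) or wild type (WT), and each genotype was either treated with lipopolysaccharide (LPS), the outer membrane lipid by which Gram-negative bacteria are sensed, at 100 ng/ml for 3 h or left untreated. The labels do not say how the knockouts were made or whether a line is 1 clone. Nor do they say whether both libraries of a group are from separate cultures. The p-values therefore reflect the spread of these libraries alone, which may be technical.

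An inflammasome is a protein platform that forms in the cytosol when a sensor such as NLRP3 or AIM2 meets its trigger. The adaptor ASC, encoded by Pycard, joins the sensor to caspase-1, which cuts the precursors of interleukin-1 beta and interleukin-18 and opens gasdermin D to form pores in the cell membrane, a lytic death called pyroptosis. In macrophages LPS is known as a priming signal that raises Nlrp3 RNA before a further signal triggers assembly, and RAW264.7 cells are known for making no ASC protein. In necroptosis, a lytic death that caspase-8 holds back, the kinase RIPK3 activates MLKL, which breaks the membrane.

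After 3 h of LPS Nlrp3 was 13.9-fold to 23.5-fold higher in all 3 genotypes, and it was the one gene among the 10 that passed the test in each of them, although not in a fit to Socs1 KO cells alone. Casp4, which encodes the caspase that senses LPS inside the cell, was 5.64-fold to 8.39-fold higher and passed the test in Ing4 KO cells, a call that was lost in 10 of 12 fits with 1 library left out. Pycard had no count in any library. The other 7 genes did not pass for LPS in any genotype in the edgeR fit to all 12 libraries with its filter on low counts. Aim2, Mlkl and Casp8 passed in some of the other fits given with each gene. Casp1 passed in Socs1 KO cells in a fit that keeps 1 of their LPS-treated libraries. With all 12 libraries and the filter, LPS called 8.02% of 12771 genes in Ing4 KO, 1.98% in Socs1 KO and 2.89% in WT cells. No member passed the test there for a knockout against WT, untreated or after LPS, where 0.047% to 0.141% of all genes were called.

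One library stood apart, and it touches most results below. The first LPS-treated Socs1 KO library lay at -16.2 on the first principal component of log2 CPM (counts per 1000000 counts of the library), which separated LPS-treated from untreated cells, whereas the other 5 LPS-treated libraries lay at 62.4 to 74.4 and the 6 untreated ones at -66.1 to -41.7. The summed level of 10 interferon-stimulated genes, a list chosen after library values were seen, was 706 CPM (with TMM scaling, trimmed means of M-values) in that library and 5609 to 16646 CPM in the other LPS-treated libraries, against 28.8 to 166 CPM in untreated libraries. For many results the values without it are given as well. The depth was 17250815 to 24377950 counts per library, so that 3 counts, the limit that a count of 0 allows, stood for 0.122 to 0.169 CPM. All 10 macrophage markers on the list used passed the filter on low counts. Their sums were 12795 to 22518 CPM in LPS-treated and 12036 to 22396 CPM in untreated libraries. Lyz2 had the most counts of the 10, and Mertk had 0 to 154 counts by library. Markers of neutrophils summed to at most 3.32 CPM, those of T, B and NK cells to at most 0.348 CPM and those of fibroblasts, epithelium and red cells to at most 0.169 CPM. Ing4 had 0.262 to 1.34 CPM in Ing4 KO, 0.169 to 1.39 CPM in Socs1 KO and 0.101 to 0.439 CPM in WT libraries, too low to check its knockout. Socs1 had 2.73 and 7.14 CPM in LPS-treated Socs1 KO cells, against 9.08 CPM in both LPS-treated WT libraries, and in untreated cells it was at 0.304 and 0.348 CPM in Socs1 KO, against 0.176 and 0.498 CPM in WT.

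The promoters of the 2 genes with the largest LPS changes are printed first, because both hold a site that fits the consensus of NF-kB, the transcription factor known to carry the LPS signal to priming genes. RefSeq windows of 300 bases (250 before and 50 after a start site, build GRCm38.p6) were at hand for 9 of the 10 genes, with 11 start sites in all. Capitals mark the matches to the NF-kB consensus, searched on both strands. Nlrp3 is shown at chr11:59541319-59541618 on the plus strand, with its match on the minus strand from base -186 to base -177 before the start. Casp4 is shown at chr9:5308599-5308898 on the plus strand, with 3 overlapping matches from base -93 to base -83.
Nlrp3: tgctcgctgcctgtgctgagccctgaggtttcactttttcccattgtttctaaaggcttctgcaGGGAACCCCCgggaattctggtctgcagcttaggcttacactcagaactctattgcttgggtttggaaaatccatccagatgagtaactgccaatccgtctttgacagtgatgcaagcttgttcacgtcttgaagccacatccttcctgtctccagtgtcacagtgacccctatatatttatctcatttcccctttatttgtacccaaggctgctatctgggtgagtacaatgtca
Casp4: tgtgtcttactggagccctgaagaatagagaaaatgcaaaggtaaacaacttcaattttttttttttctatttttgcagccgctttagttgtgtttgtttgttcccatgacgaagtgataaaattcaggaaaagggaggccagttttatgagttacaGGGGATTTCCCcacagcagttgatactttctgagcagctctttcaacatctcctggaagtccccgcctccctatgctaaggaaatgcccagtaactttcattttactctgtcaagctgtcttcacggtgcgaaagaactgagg

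Of the windows of the other 7 genes none held the consensus, which was found in 4.51% of all 32851 RefSeq windows of the same length. The second Casp4 start site lies 11 bases downstream and its window holds the same site, whereas the window of the other Nlrp3 start site does not. The consensus was chosen after a looser pattern, GGG and CC with any 5 bases between them, had matched 4 of the genes (Nlrp3, Casp1, Casp4 and Nek7) and 50.8% of all windows. The cores of the interferon-stimulated response element (GAAA, any 2 bases and GAAA, in 3.44% of all windows) and of the gamma-activated site (TTCNNNGAA, in 8.3%) and the AP-1 site (TGANTCA, in 7.81%) had no match in the 11 windows. Binding was not measured.

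Nlrp3, the sensor that responds to membrane damage and potassium loss, lies on chromosome 11 (59541568 to 59566956, plus strand, GRCm38). It had 1629 and 1515 CPM in LPS-treated Ing4 KO libraries, against 80.2 and 89.1 CPM in untreated Ing4 KO libraries. In Socs1 KO cells it had 2021 and 1474 CPM after LPS, against 68.3 and 80.3 CPM untreated. WT cells had 1191 and 1166 CPM after LPS, against 94.6 and 75.5 CPM untreated. Every LPS-treated library lay far above every untreated one, and Nlrp3 was the sole member of which this was true over all 12 libraries, a pattern seen in 7.7% of the 12771 genes tested. The log2 change with LPS was 4.22 (SE 0.239) in Ing4 KO, 4.56 (SE 0.243) in Socs1 KO and 3.79 (SE 0.234) in WT cells, with adjusted p of 9.4e-05, 8.2e-05 and 0.00020 in the quasi-likelihood test of edgeR, adjusted over all tested genes after Benjamini and Hochberg. In Socs1 KO cells it did not pass in a fit to the 4 libraries of that genotype alone (log2 4.53, adjusted p = 0.14, edgeR), where 0 of 11936 genes passed and 924 had an unadjusted p under 0.05. In RNA from whole cultures, a change in the share of cells that make a transcript and one in the RNA per cell cannot be told apart.

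Both knockouts had more Nlrp3 RNA than WT after LPS in every library, since the lowest knockout library was at 1474 CPM and the higher WT library at 1191 CPM. How many of all genes part in this way was not counted. The difference did not pass the test: log2 0.42 (SE 0.209, adjusted p = 0.77, edgeR) for Ing4 KO and 0.57 (SE 0.210, adjusted p = 0.40, edgeR) for Socs1 KO. The unadjusted p was 0.0776 and 0.0236 by edgeR, and 906 and 1356 of 12771 genes were under 0.05 in these comparisons. The difference for Socs1 KO was log2 0.33 without the first LPS-treated library of that genotype (SE 0.230, adjusted p = 0.64, edgeR), with an unadjusted p of 0.189. The LPS response of Nlrp3 exceeded that of WT by log2 0.42 (SE 0.296) in Ing4 KO and by 0.76 (SE 0.297) in Socs1 KO cells, and neither passed (adjusted p of 1 by edgeR for both). Without that library the excess in Socs1 KO cells was log2 0.52 (SE 0.299), with an unadjusted p of 0.115. Untreated libraries of the 3 genotypes overlapped.

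**Figure D1:**
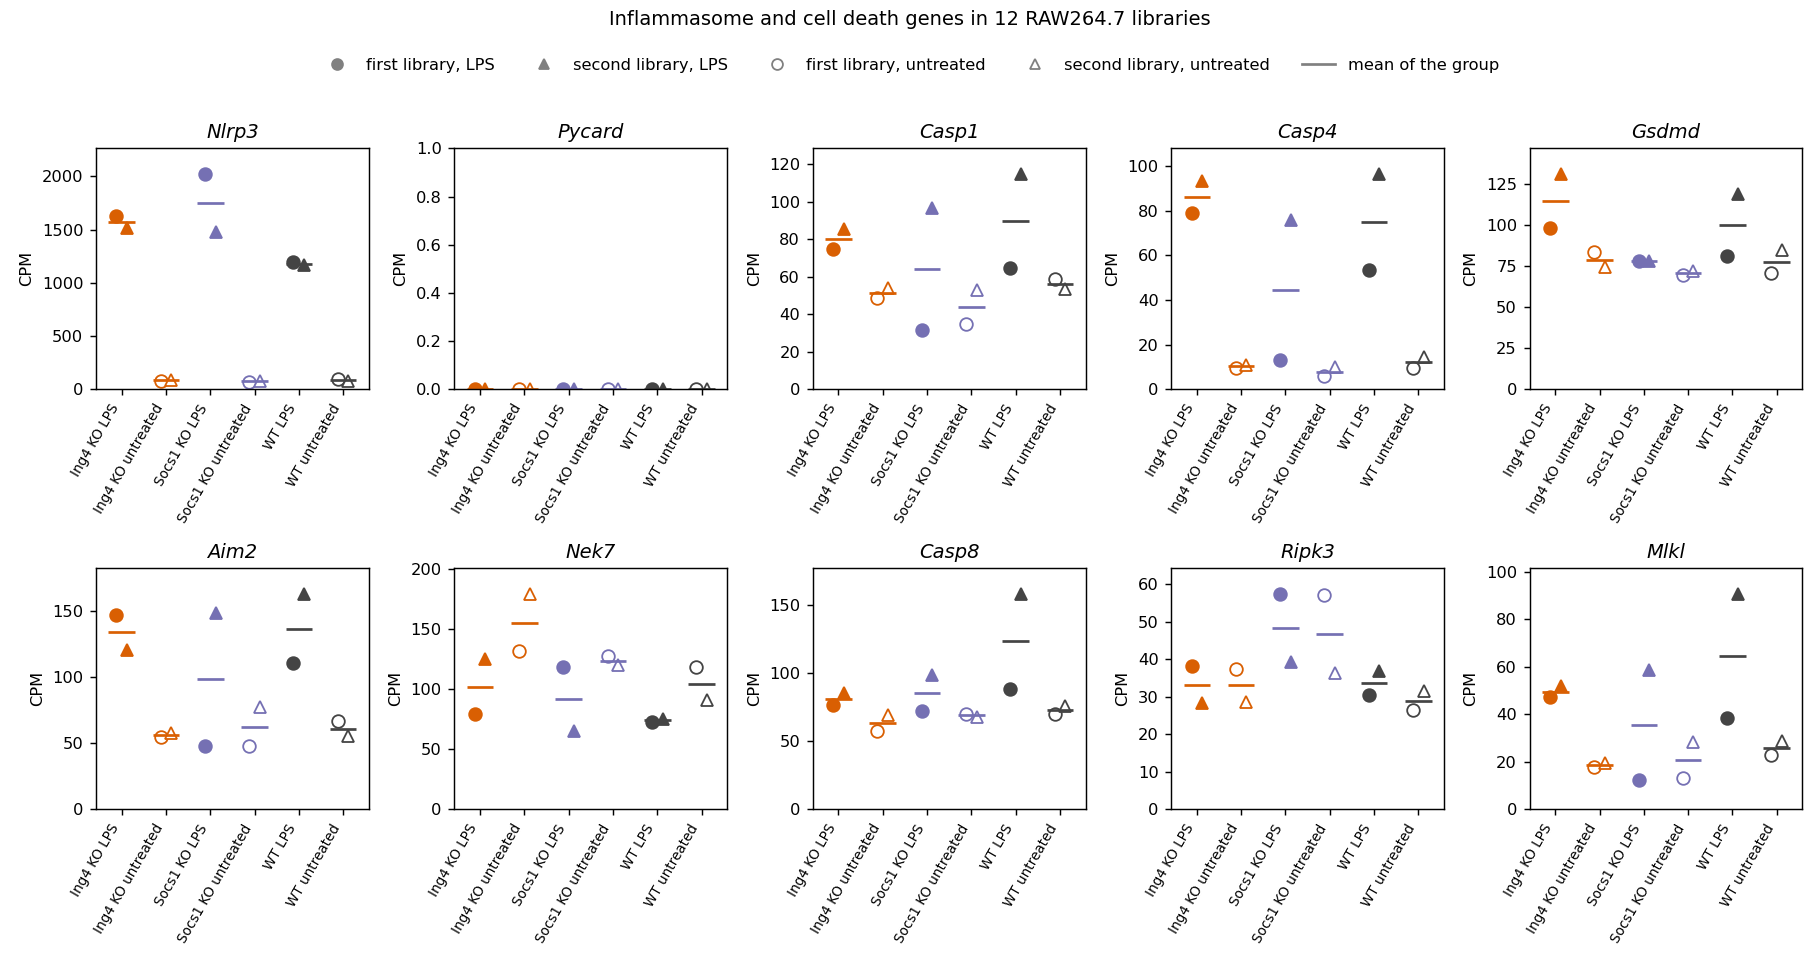
CPM (TMM-scaled, linear axes from 0) of the 10 genes in each library, with circles for first and triangles for second libraries, filled for LPS and open for untreated, and lines at group means. Nlrp3 lies at 1166 CPM or more in all LPS-treated libraries and at 94.6 CPM or less in all untreated ones, Pycard at 0 throughout, and the first LPS-treated Socs1 KO library sits low for Casp1, Casp4, Aim2 and Mlkl.

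Aim2, a sensor of DNA in the cytosol, lies on chromosome 1 (173350879 to 173466040, plus strand). How reads that match more than 1 gene were counted is not given. Aim2 had 147 and 121 CPM in LPS-treated Ing4 KO libraries, against 54.5 and 57.9 CPM untreated. WT cells had 111 and 163 CPM after LPS, against 66.6 and 55.4 CPM untreated. In both genotypes the LPS-treated libraries lay above the untreated ones, as they did for 29.1% of all genes tested in Ing4 KO and 30.7% in WT cells. The change was log2 1.25 (SE 0.466, adjusted p = 0.12, edgeR) in Ing4 KO and 1.17 (SE 0.465, adjusted p = 0.19, edgeR) in WT cells. In Socs1 KO cells the LPS-treated libraries stood at 48.1 and 149 CPM, against 47.7 and 77.5 CPM in untreated ones, so that the first lay among the untreated libraries. With that library left out Aim2 passed in each genotype, at log2 1.25 in Ing4 KO, 1.25 in Socs1 KO and 1.17 in WT cells (adjusted p of 0.010, 0.025 and 0.018 by edgeR). With every library kept, Aim2 passed in Ing4 KO cells by DESeq2 (adjusted p = 0.042), and in Ing4 KO and WT cells by edgeR fitted to the groups compared only (adjusted p of 0.011 and 0.021) or without a filter on low counts (2.7e-05 and 0.00013).

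Nek7, a kinase that binds NLRP3 and is needed for its assembly, lies on chromosome 1 (138482875 to 138620141, minus strand). It was the one member with lower values after LPS in every genotype: 78.8 and 125 CPM, against 131 and 179 CPM untreated, in Ing4 KO cells. Socs1 KO cells had 118 and 65.4 CPM after LPS, against 127 and 120.0 CPM untreated, and WT cells 72.8 and 75.2 CPM, against 119 and 90.5 CPM. The groups did not overlap within a genotype but did across genotypes, and both libraries lay below for 20.0% to 30.7% of all genes tested, by genotype. The log2 changes of -0.60 (SE 0.311) in Ing4 KO, -0.43 (SE 0.311) in Socs1 KO and -0.50 (SE 0.311) in WT cells did not pass (adjusted p of 0.24, 0.54 and 0.38 by edgeR). The change in Socs1 KO cells was log2 -0.92 without the first LPS-treated library of that genotype (SE 0.308, adjusted p = 0.076, edgeR).

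Pycard, which encodes the adaptor ASC, lies on chromosome 7 (127989708 to 127993867, minus strand) and had 0 counts in each of the 12 libraries, among 252230387 counts in all. A count of 0 allows up to 0.122 to 0.169 CPM by library and covers counting error only. Its exons of 3800 bp share 485 bp with Gm45205 on the opposite strand, which had at most 3 counts in a library. No level or response of Pycard could be tested.

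Casp1 encodes the protease that cuts interleukin-1 beta and gasdermin D, and Casp4 encodes the mouse protease also known as caspase-11, which binds LPS in the cytosol and cuts gasdermin D without a sensor platform. They are neighbours on chromosome 9, on the plus strand, at 5298517 to 5307265 and 5308828 to 5336783, with 1562 bp between them. Casp4 had 78.9 and 93.3 CPM in LPS-treated Ing4 KO libraries, against 9.68 and 10.8 CPM untreated. WT cells had 53.2 and 96.4 CPM after LPS, against 9.48 and 14.5 CPM untreated. In both genotypes the LPS-treated libraries lay well above the untreated ones. They lay above for 29.1% of all genes tested in Ing4 KO and 30.7% in WT cells. Socs1 KO cells had 13.0 and 75.9 CPM after LPS, against 5.94 and 9.81 CPM untreated. The first of these LPS-treated libraries lay below the highest untreated WT library.

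The log2 change of Casp4 was 3.07 (SE 0.728, adjusted p = 0.042, edgeR) in Ing4 KO, 2.50 (SE 0.717, adjusted p = 0.14) in Socs1 KO and 2.64 (SE 0.715, adjusted p = 0.089) in WT cells. The call in Ing4 KO cells was lost when any 1 of the 10 libraries outside the LPS-treated Socs1 KO group was left out (adjusted p of 0.065 to 0.20). Without the first LPS-treated Socs1 KO library Casp4 passed in all 3 genotypes, at log2 3.07 in Ing4 KO, 3.28 in Socs1 KO and 2.64 in WT cells (adjusted p of 0.00068, 0.0013 and 0.0018 by edgeR). With the second left out in its place Casp4 passed in Ing4 KO and WT cells too (adjusted p of 0.00067 and 0.0018), but not in Socs1 KO cells (log2 0.72, adjusted p = 0.59), beside 20.4%, 14.4% and 1.92% of 13293 genes called in those 3 genotypes. DESeq2 called it in all 3 with every library in the fit (adjusted p of 3.8e-05 in Ing4 KO, 0.0026 in Socs1 KO and 0.00082 in WT cells), where it called 17.1%, 6.59% and 11.1% of all genes. In the authors' deposited table for LPS in WT cells Casp4 was listed at log2 2.05 with an adjusted p of 0.00075 and Nlrp3 at 3.66 with 5.9e-64, and none of the other 8 genes was among the 867 listed there.

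For Casp1 no change passed the test with all libraries in the fit. In Ing4 KO cells it had 74.8 and 85.3 CPM after LPS, against 48.7 and 53.7 CPM untreated. In WT cells it had 64.4 and 115 CPM after LPS, against 58.9 and 53.4 CPM untreated. The LPS-treated Socs1 KO libraries stood at 31.6 and 96.8 CPM, against 34.6 and 52.7 CPM in untreated ones, and the first was the lowest of all 12. Log2 changes were 0.64 (SE 0.470) in Ing4 KO, 0.56 (SE 0.470) in Socs1 KO and 0.67 (SE 0.470) in WT cells (adjusted p of 0.41, 0.61 and 0.43 by edgeR). Without the first LPS-treated Socs1 KO library the change in Socs1 KO cells was log2 1.15 (SE 0.327, adjusted p = 0.045, edgeR), a value that rests on 1 LPS-treated library, whose spread is taken to be that of the other groups.

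Gsdmd, which encodes the pore protein gasdermin D, lies on chromosome 15 (75862327 to 75867408, plus strand) and varied least of the 9 measured genes, by 1.88-fold between its highest and lowest library. It had 97.9 and 131 CPM in LPS-treated Ing4 KO cells, against 83.6 and 74.1 CPM untreated. Socs1 KO cells had 78.0 and 78.2 CPM, against 69.7 and 71.7 CPM, and WT cells 81.1 and 119 CPM, against 70.6 and 84.7 CPM, where the groups overlapped. The log2 changes of 0.54 (SE 0.211), 0.14 (SE 0.211) and 0.36 (SE 0.211) did not pass (adjusted p of 0.14 in Ing4 KO, 0.79 in Socs1 KO and 0.34 in WT cells by edgeR).

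**Figure D2:**
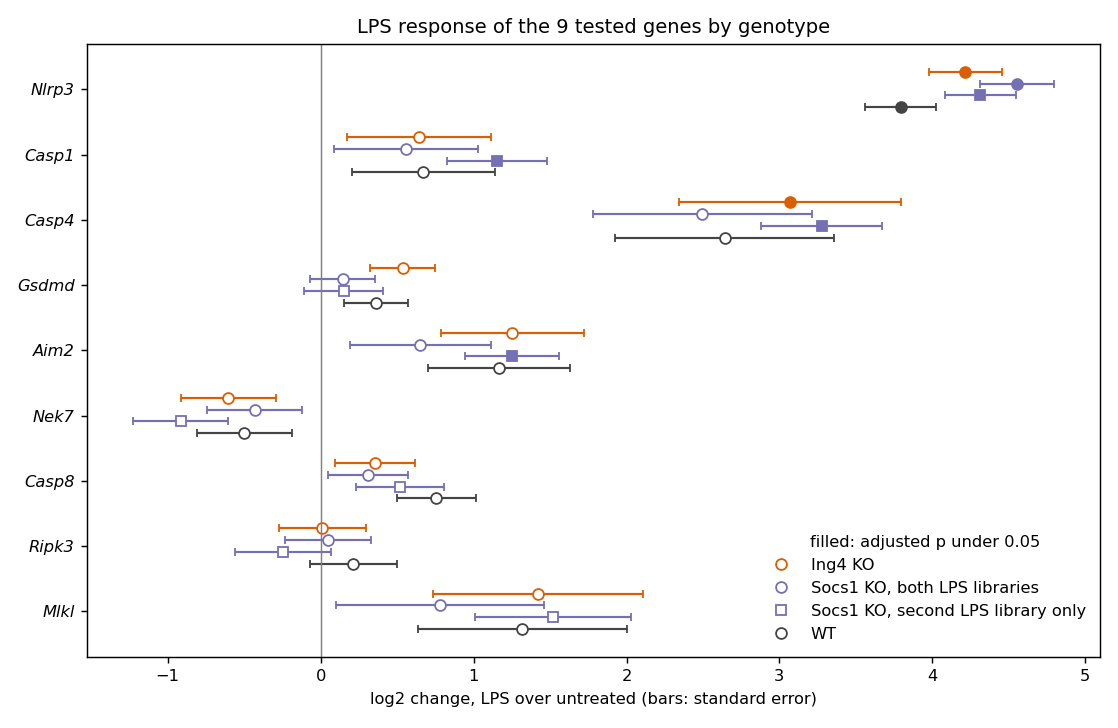
Log2 change of LPS-treated over untreated cells for the 9 tested genes, with standard errors as bars, from edgeR. Circles use all 12 libraries, squares are the Socs1 KO change from its second LPS-treated library alone, and filled symbols have an adjusted p under 0.05. Nlrp3 stands at 3.79 to 4.56 and Casp4 at 2.50 to 3.28, and Nek7 is below 0 in every estimate.

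Among the genes of death by caspase-8 and RIPK3, Mlkl had the largest change. Mlkl, the membrane-breaking effector of necroptosis, lies on chromosome 8 (111311797 to 111338177, minus strand). It had 47.2 and 51.8 CPM in LPS-treated Ing4 KO cells, against 17.7 and 19.3 CPM untreated. In WT cells it had 38.6 and 90.6 CPM after LPS, against 23.0 and 28.8 CPM untreated. Neither pair of groups overlapped, and the LPS-treated libraries lay above for 29.1% of all genes tested in Ing4 KO and 30.7% in WT cells. In Socs1 KO cells it had 12.3 and 58.8 CPM after LPS, against 13.0 and 28.2 CPM untreated, the first of these being the lowest of all 12 libraries. Log2 changes were 1.42 (SE 0.687, adjusted p = 0.22, edgeR) in Ing4 KO, 0.78 (SE 0.680, adjusted p = 0.62) in Socs1 KO and 1.32 (SE 0.683, adjusted p = 0.29) in WT cells. With the first LPS-treated Socs1 KO library left out the change in Socs1 KO cells was log2 1.52 (SE 0.511), and the 3 adjusted p were 0.056, 0.083 and 0.087 in the same order. With every library kept, Mlkl passed in Ing4 KO cells in the edgeR fit to the groups compared only (adjusted p = 0.0067), and in Ing4 KO and WT cells without a filter on low counts (9.1e-06 and 4.5e-05).

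Casp8, which encodes the initiator of death-receptor apoptosis, lies on chromosome 1 (58795374 to 58847503, plus strand). Its LPS-treated libraries were above the untreated ones of the same genotype in each case, as for 22.5% to 30.7% of all genes by genotype: 76.8 and 85.8 CPM against 57.7 and 69.4 CPM in Ing4 KO cells, 72.3 and 98.7 CPM against 70.3 and 67.7 CPM in Socs1 KO cells, and 88.8 and 158 CPM against 70.3 and 75.9 CPM in WT cells. The second WT library after LPS was far above all others. Log2 changes of 0.36 (SE 0.260), 0.31 (SE 0.260) and 0.76 (SE 0.261) did not pass (adjusted p of 0.41 in Ing4 KO, 0.61 in Socs1 KO and 0.14 in WT cells by edgeR). Casp8 passed in WT cells without a filter on low counts (log2 0.73, adjusted p = 0.038, edgeR), and without the first LPS-treated Socs1 KO library its change in Socs1 KO cells was log2 0.52 (SE 0.288, adjusted p = 0.26, edgeR).

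Ripk3, which encodes the kinase that activates MLKL, lies on chromosome 14 (55784995 to 55788865, minus strand) and showed no separation by LPS in any genotype. It had 38.1 and 28.3 CPM after LPS, against 37.3 and 28.6 CPM untreated, in Ing4 KO cells, 57.3 and 39.2 CPM against 57.1 and 36.3 CPM in Socs1 KO cells, and 30.4 and 36.7 CPM against 26.4 and 31.5 CPM in WT cells. The differences between first and second libraries were thus alike with and without LPS within each genotype. The log2 changes with LPS were 0.01 (SE 0.284) in Ing4 KO, 0.05 (SE 0.282) in Socs1 KO and 0.21 (SE 0.284) in WT cells, with adjusted p of 0.99, 0.96 and 0.71 by edgeR. In Socs1 KO cells it was log2 -0.25 without the first LPS-treated library (SE 0.313, adjusted p = 0.65, edgeR). Untreated Socs1 KO libraries were both above both untreated WT libraries, at log2 0.69 (SE 0.284), an unadjusted p of 0.0377 and an adjusted p of 0.90 by edgeR. In that comparison 658 of 12771 genes had an unadjusted p under 0.05. Ripk3 was thus picked from the separation of its own libraries. The share of all genes with that pattern was not counted.

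Counted over the 9 tested genes, LPS called 2 in Ing4 KO cells, 1 in Socs1 KO cells and 1 in WT cells, all higher. These counts stand beside 1024, 253 and 369 of all genes in the same order of genotypes, and 4.73%, 1.57% and 1.89% of all genes were called higher. The median log2 change of the 9 genes was 0.64, 0.56 and 0.76, beside medians of 0.00 to 0.01 over all tested genes, and 8 of 9 changes were positive in each genotype. Without the first LPS-treated Socs1 KO library the members called were 3, 4 and 3, beside 20.4%, 15.8% and 14.5% of all 13262 genes then tested. The median of the 9 genes was then 0.64 in Ing4 KO, 1.15 in Socs1 KO and 0.76 in WT cells, with 8, 7 and 8 positive changes. With the second LPS-treated Socs1 KO library left out in its place, Casp1, Aim2, Mlkl and Nek7 were below 0 in Socs1 KO cells. Their log2 changes were -0.47, -0.38, -0.75 and -0.07, and those of Nlrp3, Casp4, Gsdmd, Casp8 and Ripk3 were above 0. The fit to the groups compared only called 4 members in Ing4 KO and 3 in WT cells, beside 15.2% and 18.2% of all genes. Without a filter 4, 2 and 5 members were called in Ing4 KO, Socs1 KO and WT cells, beside 10.8%, 6.11% and 8.69% of 23947 genes. With the first LPS-treated Socs1 KO library left out, the remaining 5 LPS-treated libraries lay above all 6 untreated ones for 6 members. These were Nlrp3, Casp1, Casp4, Aim2, Casp8 and Mlkl, and the pattern was that of 14.6% of all genes.

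Per length, Nlrp3 took over the first rank after LPS. Levels as CPM per kb of annotated exon sequence put it at 388 ± 19.9 in Ing4 KO, 431 ± 95.2 in Socs1 KO and 290 ± 4.25 in WT cells after LPS (SD, n = 2 each), first of the 10 in each. In untreated cells it stood at 20.9 ± 1.57, 18.3 ± 2.08 and 21.0 ± 3.34 CPM per kb (SD, n = 2 each), at rank 5, 5 and 4. Casp1 led in untreated Ing4 KO and WT cells with 34.2 ± 2.36 and 37.5 ± 2.58 CPM per kb, ahead of Gsdmd at 33.2 ± 2.83 and 32.7 ± 4.21 CPM per kb, neighbours whose spreads overlap. In untreated Socs1 KO cells Gsdmd, at 29.7 ± 0.606, and Casp1, at 29.2 ± 8.58 CPM per kb, could not be told apart either. Casp4 was the lowest measured gene in every untreated group, at 2.76 ± 0.219 in Ing4 KO, 2.12 ± 0.737 in Socs1 KO and 3.23 ± 0.954 CPM per kb in WT cells, below Mlkl at 8.04 ± 0.466, 8.95 ± 4.67 and 11.3 ± 1.79. After LPS it stood at 23.2 ± 2.73 CPM per kb, rank 6, in Ing4 KO, at 12.0 ± 12.0, still rank 9, in Socs1 KO and at 20.2 ± 8.23, rank 7, in WT cells (SD, n = 2 each). It overlapped Mlkl, at 21.5 ± 1.42, 15.4 ± 14.3 and 28.1 ± 15.9 CPM per kb, in each.

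**Figure D3:**
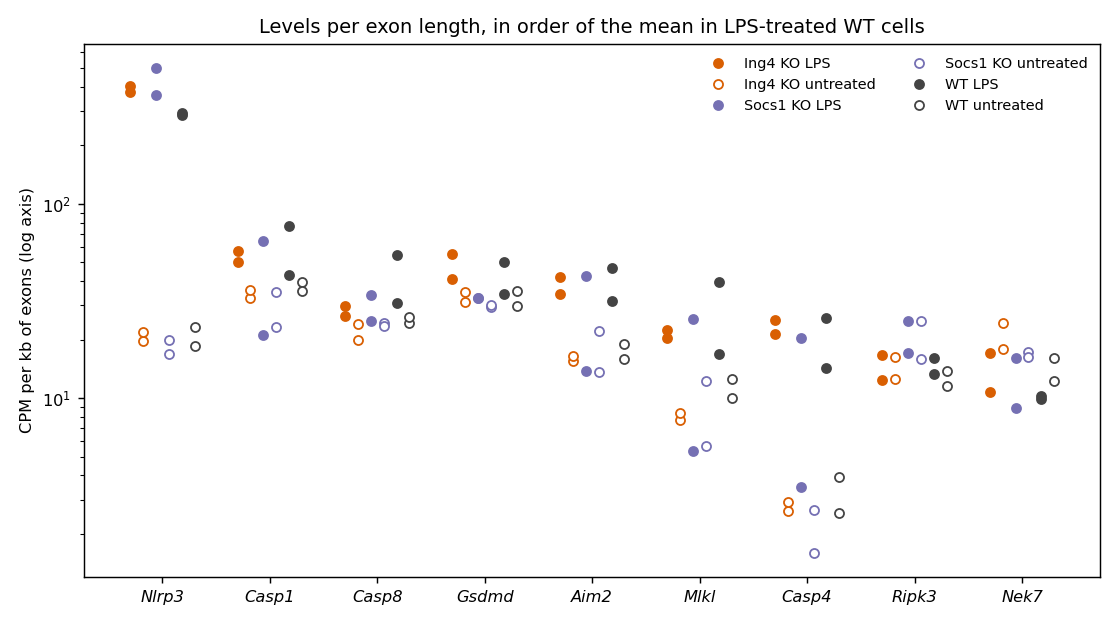
CPM per kb of exons (log axis) for the 9 genes with counts, in order of their mean in LPS-treated WT cells, with 1 point a library, filled for LPS and open for untreated. Nlrp3 is first after LPS in every genotype, and Casp4 is last in every untreated group.

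Knockout and WT cells were compared directly without and after LPS, and 0 of the 9 tested genes passed in any of the 4 comparisons, by edgeR or by DESeq2. Unadjusted p under 0.05 in edgeR were found for Casp8 in Ing4 KO and Nlrp3 in Socs1 KO after LPS and for Ripk3 in untreated Socs1 KO cells. Of all 12771 genes, 670 were under that limit for Ing4 KO against WT untreated and 906 after LPS. For Socs1 KO against WT they were 658 untreated and 1356 after LPS. The share of all genes called was 0.141% for Ing4 KO against WT untreated, 0.102% after LPS, 0.047% for Socs1 KO against WT untreated and 0.0626% after LPS by edgeR, and 0.987%, 1.1%, 0.697% and 1.9% by DESeq2. For Casp8 in Ing4 KO cells after LPS the difference was log2 -0.60 (SE 0.260, adjusted p = 0.69 by edgeR). Tests of whether a knockout's LPS response differed from that of WT called 0 members and 0 of 12771 genes by edgeR and by DESeq2. At an unadjusted p under 0.05 edgeR counted 53 genes for Ing4 KO and 102 for Socs1 KO, and DESeq2 36 and 93. Nlrp3 in Socs1 KO cells was the one member among those of edgeR, and not without the first LPS-treated Socs1 KO library. The authors' deposited tables of the 4 knockout comparisons list 74 to 183 genes, with none of the 10.

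The comparison of Socs1 KO with WT after LPS turned on which LPS-treated Socs1 KO library was used. With both, the log2 differences were -0.48 for Casp1, -0.75 for Casp4, -0.48 for Aim2 and -0.87 for Mlkl, and none passed. With the second library alone they were 0.11, 0.02, 0.12 and -0.13, and edgeR called 0 of 13262 genes, with 1442 at an unadjusted p under 0.05. With the first library alone they were -1.50, -2.53, -1.51 and -2.40, all called (adjusted p of 0.036, 0.013, 0.027 and 0.044 by edgeR), among 9.0% of 13293 genes tested. Each of these fits holds 1 LPS-treated Socs1 KO library, which is assumed to vary as the other groups do.

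Within that library the members parted. Nlrp3, at 2021 CPM, and Ripk3, at 57.3 CPM, were the highest of all 12 libraries, whereas Casp1 and Mlkl were the lowest. Aim2 was next to lowest and Casp4, Casp8 and Nek7 were each seventh from the top. For Ripk3, Casp1 and Mlkl the first untreated Socs1 KO library was close by, at 57.1, 34.6 and 13.0 CPM. On the log2 scale the second LPS-treated Socs1 KO library exceeded the first by 2.55 for Casp4, 2.26 for Mlkl, 1.63 for Aim2 and 1.61 for Casp1. The difference was -0.45 for Nlrp3 and -0.85 for Nek7. The 2 LPS-treated WT libraries differed by 1.23 for Mlkl, 0.86 for Casp4, 0.83 for Casp1 and Casp8 and 0.56 for Aim2, with the second higher, and by -0.03 for Nlrp3. Their interferon-stimulated sums were 5609 CPM in the first and 16646 CPM in the second. The 2 LPS-treated Ing4 KO libraries, with sums of 7812 and 7257 CPM, differed by at most 0.67 (Nek7) for any member. The part of the interferon-stimulated genes in these differences was not tested.

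**Figure D4:**
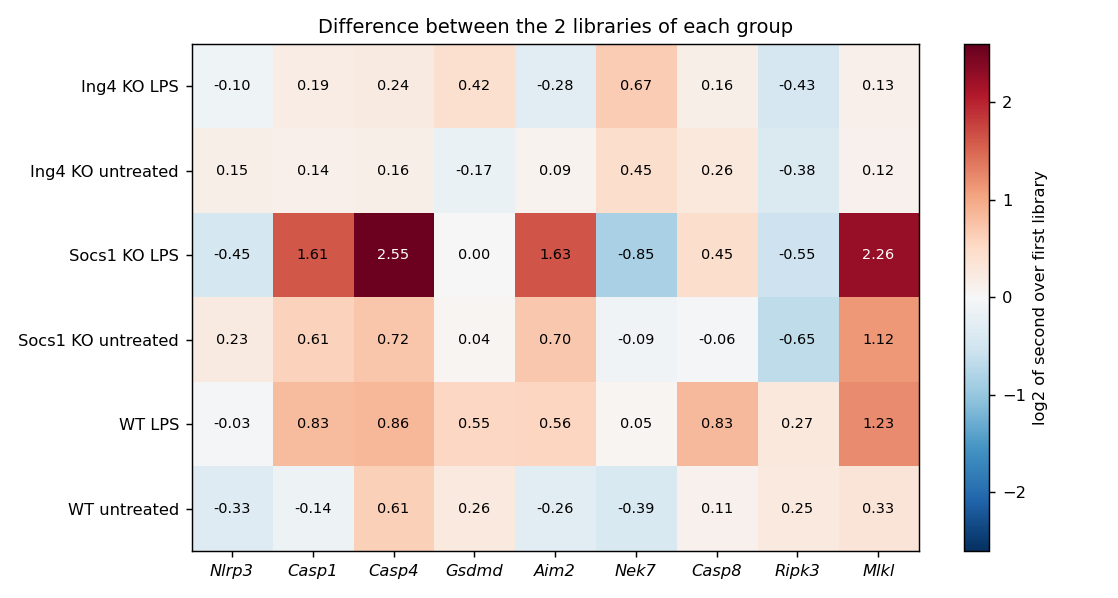
Log2 of the second over the first library of each group (colour and printed value) for the 9 genes with counts. The LPS-treated Socs1 KO pair differs most, by 2.55 for Casp4 and 2.26 for Mlkl, followed by the LPS-treated WT pair with 1.23 for Mlkl, while Nlrp3 stays within 0.45 in every group.

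The likeness of each gene to all others was measured as the root mean square difference of centred log2 CPM over the 12 libraries, which share treatment, genotype and the library that stood apart. Nearest to Nlrp3 were Csrnp1 (0.35), Zfp36 (0.39), which encodes an RNA-binding protein that shortens the life of cytokine transcripts, and Unc80 (0.43), small beside the 2.20 by which Nlrp3 itself varied (SD). Nearest to Casp4 were Mndal (0.22), a gene of the same family as Aim2, Gch1 (0.23) and Trafd1 (0.25). Nearest to Casp1 were Trim14 (0.17), Rnf135 (0.19) and D1Ertd622e (0.19), and nearest to Mlkl were H2-T22 (0.25), Lgals3bp (0.26) and Tdrd7 (0.27). The nearest pair of members was Casp1 and Aim2 (0.27), although Aim2 was only the 48th nearest gene to Casp1 and Casp1 the 65th nearest to Aim2. Aim2 was the 14th nearest gene to Mlkl (0.32). For Aim2 the nearest genes were Ccdc25, Sav1 and 5430427O19Rik, for Gsdmd Esrra, Arl6ip5 and Med29, for Nek7 Spc25, Lpxn and Syngr1, for Casp8 Gmppb, Triobp and Vezt, and for Ripk3 Mylpf, Fzr1 and Ptms, at 0.12 to 0.21. These members themselves varied little, from 0.29 for Gsdmd to 0.68 for Aim2 (SD), and a gene that varies little has small differences to many others.

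Both genes of interleukin-1 had higher RNA after LPS. Of 9 substrates and gasdermins 5 were tested, and Il1b and Il1a rose in every genotype while Gsdme fell in Ing4 KO cells, at log2 -2.32 (adjusted p = 0.042, edgeR). Il1b, the precursor that caspase-1 cuts, had 2389 and 2179 CPM in LPS-treated Ing4 KO libraries, 196 and 3865 CPM in Socs1 KO and 2554 and 2630 CPM in WT libraries, against at most 0.5 CPM in any untreated library (adjusted p of 0.0059, 0.0095 and 0.0097 by edgeR). Its low value in the first LPS-treated Socs1 KO library stands beside the highest Nlrp3 value of all libraries. A fold is not given, since untreated libraries held few or no counts. Il18, the other cytokine precursor, had 9.9 to 35.5 CPM after LPS, against 5.3 to 10.9 CPM untreated, and was called in WT cells when that library was left out (log2 1.90, adjusted p = 0.041, edgeR).

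Of 15 other inflammasome sensors 11 were tested. Nlrp10 fell in Ing4 KO (log2 -2.99, adjusted p = 0.0084, edgeR) and WT cells (-2.12, adjusted p = 0.041), Nod2, a sensor of bacterial cell wall fragments, rose in Ing4 KO cells (4.74, adjusted p = 0.036) and Nlrp1b fell there (-0.94, adjusted p = 0.046), and none was called in Socs1 KO cells. Of 14 genes that license NLRP3 or caspase-11, 13 were tested, and 3 rose and 2 fell in Ing4 KO cells, with none called in the other genotypes. Those named were Irf1 (log2 3.51, adjusted p = 0.035), Gbp5, a guanylate-binding protein (adjusted p = 0.040), P2rx7, the ATP-gated channel that triggers NLRP3 (-1.77, adjusted p = 0.046), and Panx1 (-0.86, adjusted p = 0.047). Of the 8 tested regulators of necroptosis Tnfaip3, which encodes A20, rose in all 3 genotypes, at log2 5.73 in Ing4 KO, 5.63 in Socs1 KO and 4.73 in WT cells (adjusted p of 0.0011, 0.0015 and 0.0032 by edgeR). Ticam1, the adaptor that links Toll-like receptors to RIPK3, rose in Ing4 KO (1.74) and Socs1 KO cells (2.08), and none of the 8 fell.

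All 16 genes of apoptotic caspases and the death complex were tested. Cflar, the inhibitor of caspase-8, rose by log2 2.73 in Ing4 KO, 2.75 in Socs1 KO and 2.54 in WT cells (adjusted p of 0.0025, 0.0031 and 0.0044 by edgeR), with 594 and 977 CPM in LPS-treated Ing4 KO, 512 and 559 CPM in Socs1 KO and 463 and 481 CPM in WT libraries, against 66.1 to 145 CPM in untreated ones. Birc3 rose in all 3, Birc2 in Ing4 KO cells, and Casp2 fell in Ing4 KO (-0.93) and Socs1 KO cells (-0.90). Of 9 inhibitors Bcl2 alone was called with all 12 libraries, lower in Ing4 KO cells (-1.38, adjusted p = 0.028, edgeR). Without the first LPS-treated Socs1 KO library more inhibitors were called in Ing4 KO, Socs1 KO and WT cells, as was true over all genes. Bcl2l1, which encodes the survival protein Bcl-xL, then rose in each, at log2 2.07, 2.74 and 1.79 (adjusted p of 0.00063, 0.00047 and 0.0017 by edgeR), and so did Trim30a, at log2 3.13, 3.84 and 2.98 (adjusted p of 0.0029, 0.0026 and 0.0045). In the filtered edgeR fit to all 12 libraries no gene of the 6 lists passed for a knockout against WT or for a difference of responses. The lists were not counted for this in the fits without a filter or without the second LPS-treated Socs1 KO library.

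Without the first LPS-treated Socs1 KO library more genes of the lists of sensors, licensing, necroptosis and apoptosis were called too. This held in each genotype, as it did over all genes. Zbp1, a sensor that activates RIPK3, was then called in all 3 genotypes, with 56.3 and 46.6 CPM in LPS-treated Ing4 KO libraries, 0.8 and 61.5 CPM in Socs1 KO and 26.7 and 55.1 CPM in WT libraries, against 0.5 to 1.3 CPM untreated. Ifi204, a DNA sensor related to Aim2, was called in all 3 as well, with 10.1 CPM in that library, 188 to 452 CPM in the other LPS-treated libraries and 5.9 to 23.5 CPM in untreated ones. In that library both stood at untreated levels, as did Mlkl and Aim2, whereas Cflar, at 512 CPM, and Nlrp3 did not.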

How the data were processed

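Poly(A) RNA of RAW264.7 cells went through a stranded TruSeq preparation and a NextSeq 500 run of 75-base single reads, per the labels' protocols. The counts are whole reads per Ensembl gene in the authors' deposited table, unscaled, with every column matched to a library by its description (0 columns unused) and no row without a gene. FastQC, HISAT, StringTie, HTSeq and DESeq2 are named in the submitters' processing notes, with versions and settings not given in the sources used here, so whether counting used strand is not given either. GRCh38, a human build, is the one named there. The identifiers are those of mouse, and GENCODE M21 on GRCm38 has the same position for 1028 of the 1084 genes listed in the authors' deposited tables (94.8%). It was used here for coordinates and exon lengths. The treatment protocol names HEK293T, a human line, against the sample labels. The authors' deposited tables of changed genes hold log2 fold changes, p-values and adjusted p-values, and group means of normalized count signal.

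Genes were kept by filterByExpr (12771), scaled by TMM and fitted in R 4.3.3 with edgeR 4.0.16 (robust quasi-likelihood, 6 group means), and called at a Benjamini-Hochberg adjusted p under 0.05 over all tested genes. Standard errors are log2 changes divided by the square root of F, without sign. The common biological coefficient of variation was 0.289. The scripts were tested on simulated data. Alternatives were DESeq2 1.42.0, scaling by relative log expression (RLE), no filter (at least 1 count), a fit to the groups compared only, a replicate block and leaving out each library. A block within genotype was added after the data were seen. All 10 members are named, up to 4 called genes a list and comparison by smallest p, and the 3 nearest genes to each member (log2 CPM, prior count 2). The members and lists were chosen with earlier results of these data known. The 6 pathway lists hold 71 symbols, all matched, with Irgb10 listed as Gm12250. Limits for counts of 0 cover counting error only. Promoter windows are from RefSeq, and that of Gsdmd was not analysed here.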

Additional observations from a re-analysis of the deposited data

How the results depend on the processing

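With 2 libraries a group and 1 library that stood apart, counts of calls moved widely with the processing. Set against the fit as reported, no member changed direction where it was called in either fit. Between alternatives, directions did turn in Socs1 KO cells. Against WT after LPS, Casp1, Casp4 and Aim2 were at log2 -1.50, -2.53 and -1.51 with the first LPS-treated Socs1 KO library alone. With the second alone they were at 0.11, 0.02 and 0.12. For LPS in Socs1 KO cells, Casp1 ranged from log2 -0.47 to 1.15 and Aim2 from -0.38 to 1.25 with a library left out. Of 1422 log2 changes of members recomputed, 73 changed sign, none of them called in either fit and 65 of them with a library left out. Of all 1422, 11 lost a call, 10 of these for Casp4 with LPS in Ing4 KO cells, and 32 gained one. RLE scaling moved no count of members or of all genes by over 1.5 times.

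For LPS in Ing4 KO cells the members called were 2 in the analysis as reported, 4 in the fit to the groups compared only, 4 without a filter, 3 with DESeq2 and 1 to 3 with a library left out, and all genes called were 1024, 1820, 2588, 2187 and 77 to 2708. For LPS in Socs1 KO cells they were 1, 0, 2, 2 and 1 to 4 members and 253, 0, 1462, 842 and 49 to 2090 genes. For LPS in WT cells they were 1, 3, 5, 2 and 1 to 3 members and 369, 2197, 2080, 1420 and 28 to 1920 genes. For Ing4 KO against WT 0 members were called under each of these, with 18, 177, 516, 126 and 1 to 47 genes untreated and 13, 72, 539, 140 and 4 to 40 genes after LPS. For Socs1 KO against WT untreated 0 members were called throughout, with 6, 4, 429, 89 and 0 to 24 genes. After LPS they were 0, 0, 1 (Mlkl, lower), 0 and 0 to 4 members and 8, 0, 919, 243 and 0 to 1196 genes. The differences of LPS responses called 0 members throughout, with 26 genes without a filter for Ing4 KO and 64 genes without a filter and 0 to 61 with a library left out for Socs1 KO. The cause of these moves was not tested.

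Libraries with the same replicate number share only that number in the labels. Differences of first and second libraries correlated at 0.447 to 0.601 between the treatments of a genotype and at -0.129 to 0.156 between genotypes. With the number as a replicate block the members called were 2 for LPS in Ing4 KO, 1 in Socs1 KO and 2 in WT cells, where Casp4 passed (adjusted p = 0.046, edgeR), and Socs1 KO against WT after LPS called 18 genes. A replicate block within genotype gave 4, 1 and 2 members in Ing4 KO, Socs1 KO and WT cells and 3471, 769 and 1811 genes. Those called beside Nlrp3 were Casp4, Aim2 (adjusted p = 0.031, edgeR) and Mlkl (0.030) in Ing4 KO and Casp4 (0.022) in WT cells.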
